A study of Medicago truncatula with 4 samples.

Results

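The genes described here are those of cytokinin metabolism, perception and response in *Medicago truncatula* calli. They were taken by keyword from the deposited gene descriptions and symbols: entries for cytokinin, CHASE-domain, response regulator, phosphotransfer, isopentenyltransferase or lonely guy proteins, and symbols that begin with MtRR, MtCKX, MtIPT, MtLOG or MtHPT. The rule found 80 of the 52709 genes in the table, and it used no measured value. Of these 80 genes, 32 had 0 counts in all 4 libraries (40%, with 39.8% of all genes in the table). A further 3 had fewer than 10 counts in total, so 45 were tested. Since symbols were given for 3772 genes and descriptions for 3784, cytokinin genes without either were not included.

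RNA-seq libraries came from polyA RNA of calli grown from leaf explants of line R108. The wildtype group was R108 without a transgene (2 libraries), and the MtWOX9-1oe group was R108 with an insertion from the pMDC32 plasmid carrying the coding sequence of *MtWOX9-1*, a homeobox transcription factor gene of the WOX family (2 libraries). Explants of both groups spent 30 days on medium that held the auxin 2,4-D at 18 μM and the cytokinin BAP at 2.22 μM, both synthetic, and then 5 days on medium without hormones, so that every callus was collected on day 35. All calli had therefore received cytokinin before sampling, and no group without BAP was compared. pMDC32 is a vector for constitutive expression, and whether the replicate calli came from 1 or several transformed plants is not given in the sources used here. The replicates of a group are labelled as biological, and the p-values measure only the spread between these libraries.

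The libraries held 5241334 to 6666866 counts, so that 3 counts, the limit that a count of 0 allows, corresponded to 0.450 to 0.572 CPM, the count scaled to a common library total (counting error only). The transgene’s own gene, *MtWOX9-1*, gave 2 and 18 counts in wildtype against 7692 and 7634 counts in MtWOX9-1oe calli, in the direction of the labels. A count of 0 beside a well counted replicate was not rare: 72 to 97 genes per library had 0 counts where the other replicate had at least 20. In the same situation, 43 genes had 1 to 5 counts in wildtype replicate 1, and 4 to 13 genes in each of the other libraries. A lone 0 among the cytokinin genes is thus given as a listed value. In 4 of the cytokinin genes (*MtLOG2*, *MtPRR7*, *MtIPT9* and *MtRRA4*) 1 wildtype library was at 0 and the other had at least 10 counts, and in 2 (*MtCHK5* and *MtLOG1*) the same held for the MtWOX9-1oe libraries.

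Cytokinins are adenine derivatives that promote cell division and shoot formation and, together with auxin, are used to induce callus. Isopentenyltransferases (IPT) start their synthesis, LOG enzymes release the active bases from nucleotides, and cytokinin oxidases/dehydrogenases (CKX) degrade them. Receptors are histidine kinases with a CHASE domain that binds the hormone, and the phosphoryl group they receive is passed by histidine phosphotransfer proteins (HPT) to type-B response regulators, which are DNA-binding transcription factors. Type-A response regulators have no DNA-binding domain, are induced by type-B regulators and, in *Arabidopsis*, dampen the signal. Pseudo-response regulators share the receiver fold but lack the conserved aspartate that accepts the phosphoryl group, and in *Arabidopsis* several of them are part of the circadian clock rather than of cytokinin signalling.

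Cytokinin genes moved in both directions, and the direction differed among genes of the same role. In edgeR's quasi-likelihood fit, with p-values adjusted after Benjamini and Hochberg over 24630 genes, 10 of the 45 tested genes were higher in MtWOX9-1oe calli at an adjusted p under 0.05 (22.2%, with 20.2% of all genes tested) and 11 were lower (24.4%, with 18.9% of all genes). In either direction 21 were called (46.7%), a share near the 39.2% of all genes tested. Of the 45 tested genes, 8 were called and higher by more than 1 on the log2 scale (13.5% of all genes tested were). Another 6 of the 45 were called and lower by more than 1 (12.6% of all genes tested). The values of the 2 groups did not overlap in 20 genes that were higher (39.3% of all genes) and 16 that were lower (35.8% of all genes), including all 21 called genes. The median log2 fold change was 0.22 over the tested cytokinin genes and 0.039 over all genes, and the median absolute value was 0.80 against 0.62.

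These counts depended on single libraries and on scaling. Without wildtype replicate 2, 16 genes were higher and 8 lower, whereas 9 were higher and 5 lower without MtWOX9-1oe replicate 1, and 10 were higher and 7 lower without MtWOX9-1oe replicate 2. With library size as the only scaling, which raised the median of all genes by 0.14, 14 genes were higher and 7 lower. The share of higher genes among the called cytokinin genes went from 47.6% to 66.7%. Among all called genes this share also rose, from 51.7% to 60.5%. Every called gene kept its direction in all 11 alternative fits, and 13 of the 21 passed the threshold in each. These 13 were *MtCHK3*, *MtCHK4*, *MtCKX1*, *MtCKX3*, *MtTMO3*, *MtHPT1*, *MtLOG3*, *LOG-like 4*, *MtPRR4*, *MtPRR6*, *MtRRA4*, *MtRRA9* and *MtRRB4*.

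**Figure D1:**
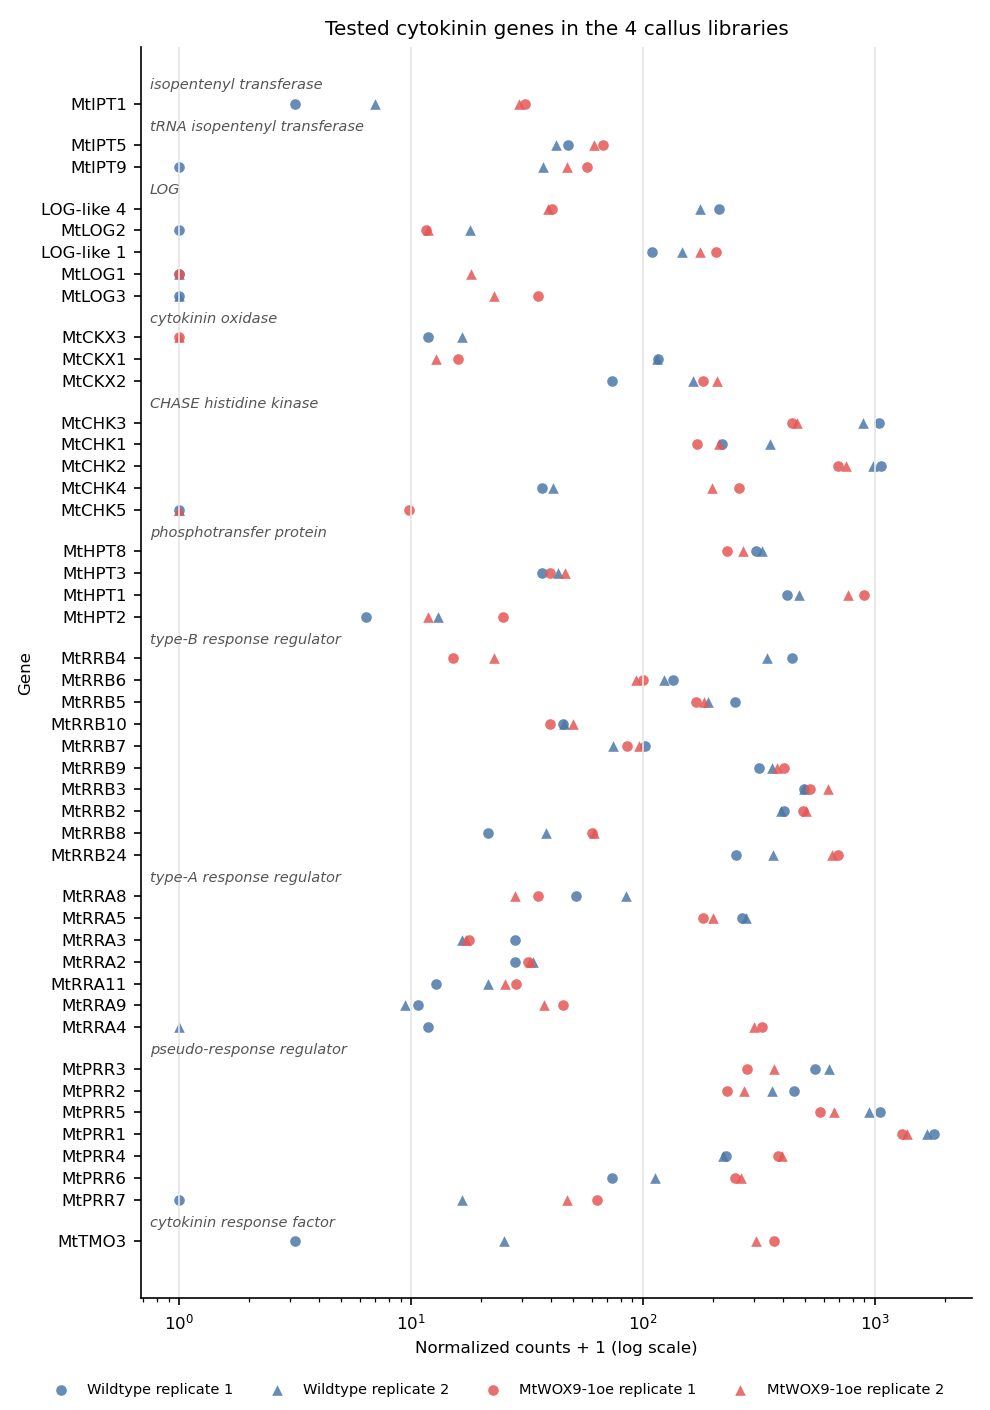
Normalized counts plus 1 (x axis, log scale) of the 45 tested cytokinin genes (y axis, grouped by role), with 1 point per library: blue for wildtype, red for MtWOX9-1oe, circles for replicate 1 and triangles for replicate 2. *MtRRB4*, *MtCKX1* and *LOG-like 4* lie to the left in the red points, *MtRRA4*, *MtTMO3* and *MtCHK4* to the right, and the lone values of 0 stand at the left edge.

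Levels below are normalized counts, that is counts scaled to the mean of the 4 effective library sizes (TMM). They were not divided by gene length, so that they compare libraries and not genes.

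Among the synthesis genes, 1 isopentenyltransferase gene rose. *MtIPT1* on chromosome 1 (MtrunA17Chr1g0209731), which codes for the enzyme of the first step, had 2.15 and 6.02 normalized counts in wildtype and 29.9 and 28.1 in MtWOX9-1oe calli. Both MtWOX9-1oe libraries were above both wildtype libraries, with a log2 fold change of 2.82 (SE 0.48, adjusted p = 0.012), but without MtWOX9-1oe replicate 1 the adjusted p was 0.053. The size of the increase was 2.24 on the log2 scale when wildtype replicate 1 was left out and 3.68 when wildtype replicate 2 was. The other isopentenyltransferase genes gave almost no counts: *MtIPT3* had 1 count in all libraries together, and *MtIPT2* and the locus on chromosome 2 labelled both *MtIPT1* and *MtIPT4* had 0. Neither gene labelled as similar to the *Arabidopsis* hydroxylases of trans-zeatin synthesis (*AtCYP735A1-like* and *AtCYP735A2-like*) had a count in any library.

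The tRNA isopentenyltransferases modify tRNA, whose breakdown yields cis-zeatin, and neither of their genes passed the threshold. *MtIPT5* had 46.3 and 40.9 normalized counts in wildtype and 66.1 and 60.6 in MtWOX9-1oe calli (log2 fold change 0.54, SE 0.19, adjusted p = 0.079). The groups did not overlap, although the difference missed the threshold. *MtIPT9* was listed at 0 in wildtype replicate 1 and had 36.1, 56.4 and 46.2 normalized counts in the other libraries. *MtIPT5* passed the threshold with library size as the only scaling, and *MtIPT9* without wildtype replicate 2.

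The *LOG* genes, which code for the phosphoribohydrolases that release active cytokinin bases, changed in opposite directions. *LOG-like 4* (chromosome 3) fell from 212 and 176 normalized counts in wildtype to 39.6 and 38.0 in MtWOX9-1oe calli, 194 ± 25.7 against 38.8 ± 1.1 (SD, n = 2). This 4.99-fold decrease, with a log2 fold change of -2.32 (SE 0.17, adjusted p = 0.0027), was much larger than the spread within each group. *MtLOG3* (chromosome 1) gave 0 counts in either wildtype library but 39 and 24 counts in MtWOX9-1oe calli. It was called higher (adjusted p = 0.0086), and its mean in MtWOX9-1oe calli was 8.20-fold the limit of 3 counts per library. This value takes in neither the error of that mean nor zeros that arise from more than counting error. *LOG-like 1*, the most counted gene of this class, had 109 and 147 normalized counts in wildtype and 206 and 175 in MtWOX9-1oe calli (log2 fold change 0.58, SE 0.20, adjusted p = 0.072), and it passed the threshold with library size as the only scaling or without wildtype replicate 2. *MtLOG1* had counts in MtWOX9-1oe replicate 2 only and was called only without replicate 1, *MtLOG2* had 14 counts or fewer in each library and was called only without wildtype replicate 2, and *LOG-like 2* and *LOG-like 3* had 0 counts in all of them. The summed level of the class went from 321 and 339 to 291 and 262 normalized counts, while *LOG-like 4* went from 66.1% and 51.8% of it to 13.6% and 14.5%, and *LOG-like 1* from 33.9% and 43.3% to 70.9% and 66.6%.

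Of the 3 *CKX* genes, whose products degrade cytokinins, 2 fell. *MtCKX1* (chromosome 1) had 115 and 114 normalized counts in wildtype and 15.0 and 11.8 in MtWOX9-1oe calli. The wildtype libraries were nearly equal and both lay far above the MtWOX9-1oe libraries, an 8.51-fold decrease (log2 fold change -3.09, SE 0.21, adjusted p = 0.0026). *MtCKX3* (chromosome 2), chosen after its values were seen, had 10 and 13 counts in wildtype and 0 in both MtWOX9-1oe libraries (adjusted p = 0.013). Its wildtype mean was 4.93-fold the limit of 3 counts per library, without the error of that mean. *MtCKX2* (chromosome 4) was not called, with 72.1 and 164 normalized counts in wildtype and 181 and 207 in MtWOX9-1oe calli (log2 fold change 0.73, SE 0.38, adjusted p = 0.19). Its wildtype libraries differed more than 2-fold from each other, and the log2 fold change was 0.24 (adjusted p = 0.43) when wildtype replicate 1 was left out and 1.43 (adjusted p = 0.0098) when wildtype replicate 2 was. The summed level of the class was 198 and 294 normalized counts in wildtype against 196 and 219 in MtWOX9-1oe calli, while *MtCKX2* made up 36.4% and 55.7% of it in wildtype and 92.3% and 94.6% in MtWOX9-1oe calli.

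**Figure D2:**
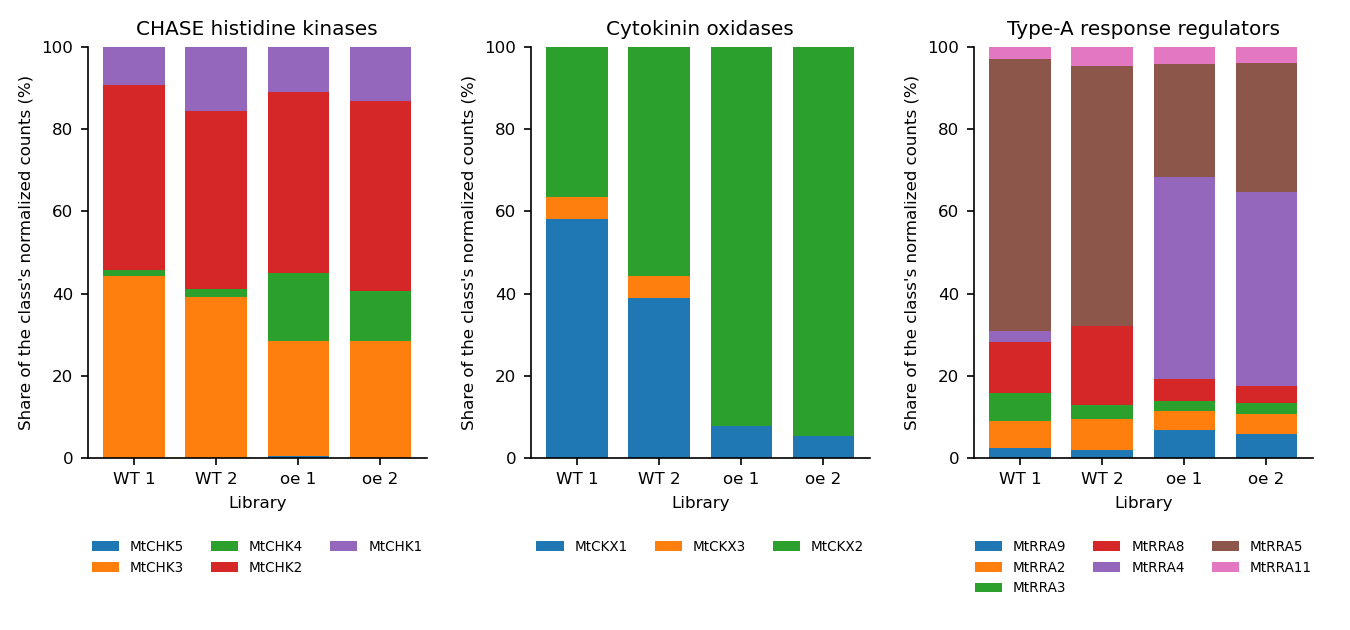
Share of each gene (y axis, %) in the summed normalized counts of its class, in each of the 4 libraries (x axis: WT, wildtype; oe, MtWOX9-1oe), for CHASE histidine kinases, cytokinin oxidases and type-A response regulators. In the MtWOX9-1oe libraries *MtCKX2* took 92.3% and 94.6% of the oxidase counts and *MtRRA4* 49.3% and 47.2% of the type-A counts, and *MtCHK4* rose from 1.51% and 1.77% to 16.5% and 12.2% of the receptor counts.

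The receptors also changed in opposite directions, with 1 of 5 higher and 2 lower. *MtCHK4* (chromosome 5) rose 6.05-fold, from 35.5 and 39.7 normalized counts in wildtype to 259 and 196 in MtWOX9-1oe calli (log2 fold change 2.60, SE 0.21, adjusted p = 0.0029). Leaving out any library gave 2.38 to 2.78 on the log2 scale. *MtCHK3* (chromosome 3) fell from 1043 and 882 to 438 and 459 normalized counts (log2 fold change -1.10, SE 0.13, adjusted p = 0.0055). Its lowest wildtype value was well above its highest MtWOX9-1oe value. *MtCHK2* (chromosome 8), the most counted receptor gene, had 1059 and 974 normalized counts in wildtype and 692 and 745 in MtWOX9-1oe calli (log2 fold change -0.50, SE 0.12, adjusted p = 0.028). This smaller decrease lost its call in each of the 4 fits without 1 library and with library size as the only scaling.

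*MtCHK1*, also named *MtCRE1* and known as the receptor gene needed for nodule formation in *Medicago*, was not called. It had 217 and 353 normalized counts in wildtype and 170 and 211 in MtWOX9-1oe calli (log2 fold change -0.58, SE 0.27, adjusted p = 0.15). Its value rested on the wildtype libraries: it was -0.89 (adjusted p = 0.032) when wildtype replicate 1 was left out and -0.19 (adjusted p = 0.54) when wildtype replicate 2 was. *MtCHK5* had 10 counts in MtWOX9-1oe replicate 1 and 0 in the other libraries. Over the 5 receptor genes the summed level was 2356 and 2248 normalized counts in wildtype and 1568 and 1611 in MtWOX9-1oe calli, given with no test. In RNA from whole calli, fewer cells of a type and less RNA per cell cannot be told apart, and this holds for each level reported here.

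Among the 8 genes for phosphotransfer proteins, which carry the signal from the membrane receptors to the nucleus, 4 had 0 counts in all libraries and 1 changed. *MtHPT1* (chromosome 2) rose from 416 and 467 normalized counts in wildtype to 892 and 764 in MtWOX9-1oe calli, 441 ± 36.3 against 828 ± 90.7 (SD, n = 2). The log2 fold change was 0.91 (SE 0.14, adjusted p = 0.0090). *MtHPT8* had 306 and 324 normalized counts in wildtype and 228 and 269 in MtWOX9-1oe calli and was not called (log2 fold change -0.34, adjusted p = 0.11). *MtHPT1* thus went from 54.5% and 55.3% to 75.4% and 70.2% of the counts of its class. The weakly counted *MtHPT2* and *MtHPT3* did not pass the threshold, at log2 fold changes of 1.00 and 0.12.

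Type-B response regulators were the largest class, and most of their genes gave no counts. Of 29 genes, 17 had 0 counts in all libraries, *MtRRB17* and *MtRRB20* had 3 and 5 counts in total, and 10 were tested. Many of the genes without counts stood in groups: 9 of the 17 had another type-B gene within 10 gene numbers on the same chromosome. The same held for 1 of the 10 tested genes (*MtRRB10*, beside *MtRRB1* with 0 counts). *MtRRB21*, *MtRRB22* and *MtRRB29* are neighbours on chromosome 1, and *MtRRB11* to *MtRRB14* lie close together on chromosome 4. How reads that match several copies were counted is not given in the sources used here, so a 0 in such a group is less certain than elsewhere. The gene identifiers are those of line A17, whereas the calli were of line R108. Whether each locus is present in R108 was not tested.

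The strongest decrease among the cytokinin genes with counts in every library was that of *MtRRB4* (chromosome 3). It had 438 and 341 normalized counts in wildtype and 14.1 and 21.7 in MtWOX9-1oe calli. The groups were separated by more than 10-fold in every pair of libraries, with a 21.7-fold decrease in the fit (log2 fold change -4.44, SE 0.26, adjusted p = 0.0026). Leaving out each library in turn gave -4.78 to -4.15. *MtRRB24* (chromosome 4) moved the other way, from 251 and 361 to 688 and 651 normalized counts (log2 fold change 1.13, SE 0.20, adjusted p = 0.013). Both MtWOX9-1oe libraries lay above the wildtype ones, although the adjusted p was 0.0501 without MtWOX9-1oe replicate 1.

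The other 8 tested type-B genes were not called, at log2 fold changes from -0.42 to 1.06. The highest of these values was that of *MtRRB8*, whose groups did not overlap (adjusted p = 0.052). It passed the threshold with library size as the only scaling, with filterByExpr and without wildtype replicate 2, and its adjusted p was 0.018 to 0.21 over the alternative fits. *MtRRB2* (log2 fold change 0.32, adjusted p = 0.073) passed with library size as the only scaling. *MtRRB3*, the most counted of the class, had 495 and 492 normalized counts in wildtype and 525 and 625 in MtWOX9-1oe calli (log2 fold change 0.22, SE 0.13, adjusted p = 0.24). The summed level of the class was 2455 and 2410 normalized counts in wildtype and 2567 and 2656 in MtWOX9-1oe calli. Within this sum *MtRRB4* went from 17.9% and 14.1% to 0.55% and 0.82%, and *MtRRB24* from 10.2% and 15.0% to 26.8% and 24.5%.

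Of the 10 type-A response regulator genes 7 were tested, of which 2 rose and 2 fell. *MtRRA4* (also *MtRR4*, chromosome 5), a type-A gene used in *Medicago* as a marker of the cytokinin response, rose most. It gave 10 and 0 counts in wildtype against 369 and 330 in MtWOX9-1oe calli. The log2 fold change was 5.75 (SE 0.60, adjusted p = 0.0042). Its size rested on the wildtype libraries: it was 4.84 when wildtype replicate 2 was left out and 11.32 when wildtype replicate 1 was, where the remaining wildtype library is listed at 0 and the fitted value is no bound. *MtRRA9* (*MtRR9*, chromosome 3), chosen after its values were seen, rose from 9.69 and 8.42 to 44.0 and 36.2 normalized counts (log2 fold change 2.13, SE 0.30, adjusted p = 0.0072).

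*MtRRA5* (*MtRR5*, chromosome 7), the type-A gene with the highest mean count in wildtype, had 267 and 276 normalized counts there and 181 and 198 in MtWOX9-1oe calli (log2 fold change -0.52, SE 0.12, adjusted p = 0.027). *MtRRA8* (*MtRR8*, chromosome 4), chosen after its values were seen, had 50.6 and 83.0 normalized counts in wildtype and 34.4 and 27.2 in MtWOX9-1oe calli (log2 fold change -1.11, SE 0.32, adjusted p = 0.047). Neither decrease was firm: DESeq2 gave adjusted p-values of 0.14 and 0.17, and each lost its call in 7 of the 11 alternative fits. With wildtype replicate 2 left out, *MtRRA8* had a log2 fold change of -0.71. *MtRRA2*, *MtRRA3* and *MtRRA11* were not called, at log2 fold changes from -0.37 to 0.69, and the other 3 type-A genes had 0 counts. Over the class, the summed level was 404 and 436 normalized counts in wildtype and 659 and 633 in MtWOX9-1oe calli. *MtRRA4* made up 2.67% and 0% of it in wildtype and 49.3% and 47.2% in MtWOX9-1oe calli, while *MtRRA5* went from 66.1% and 63.3% to 27.4% and 31.3%. *MtRR31* and *MtRR32*, response regulators of no stated type, had 0 counts.

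**Figure D3:**
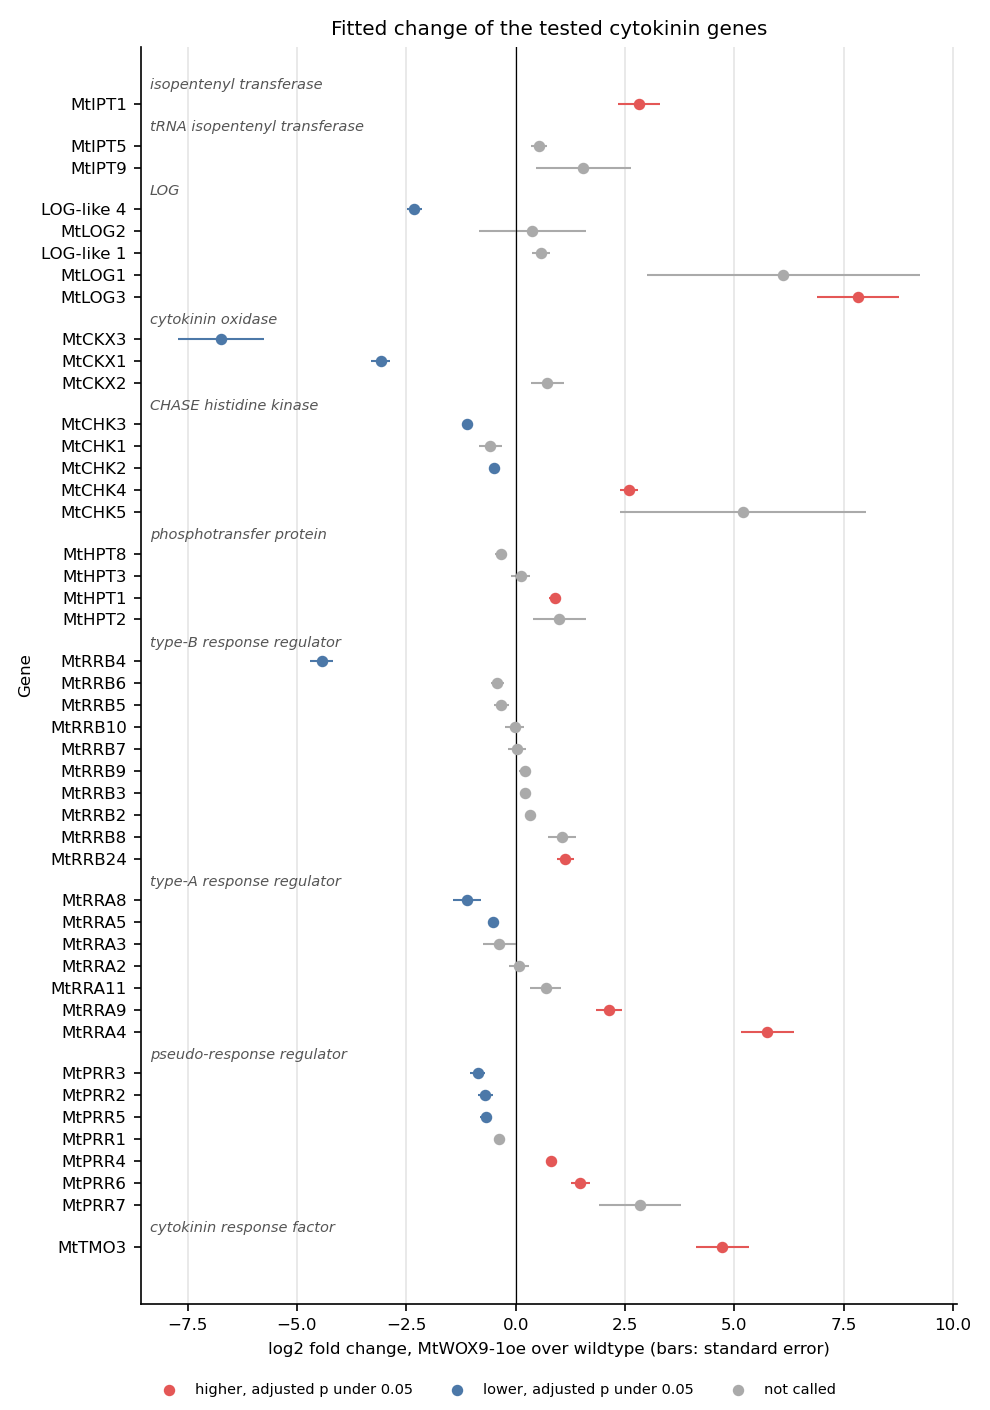
Fitted log2 fold change of MtWOX9-1oe over wildtype (x axis; bars, standard error) for the 45 tested cytokinin genes (y axis, by role), in red for the 10 genes called higher, blue for the 11 called lower and grey for the 24 not called. *MtRRA4* (5.75), *MtTMO3* (4.73), *MtCHK4* (2.60), *MtCKX1* (-3.09) and *MtRRB4* (-4.44) lie far from 0, and the fitted values of *MtCKX3*, *MtLOG1*, *MtLOG3* and *MtCHK5*, with 1 group at 0 counts, depend on the prior count.

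All 7 pseudo-response regulator genes were tested, with 2 higher and 3 lower. *MtPRR6* (chromosome 7) rose from 72.1 and 112 to 248 and 262 normalized counts (log2 fold change 1.48, SE 0.22, adjusted p = 0.0089). *MtPRR4* (chromosome 4) rose from 227 and 220 to 382 and 397 (log2 fold change 0.80, SE 0.11, adjusted p = 0.0072). In both genes the replicates lay close together in MtWOX9-1oe calli, and both calls held in every alternative fit. *MtPRR3* (chromosome 3) fell from 548 and 632 to 280 and 367 normalized counts (log2 fold change -0.87, SE 0.18, adjusted p = 0.018), and lost its call without MtWOX9-1oe replicate 1 (adjusted p = 0.057). *MtPRR5* (chromosome 4) fell from 1052 and 936 to 579 and 664 (log2 fold change -0.68, SE 0.14, adjusted p = 0.018), and *MtPRR2* (chromosome 3) from 447 and 357 to 228 and 271 (log2 fold change -0.69, SE 0.17, adjusted p = 0.030). These 2 calls were lost in several fits without 1 library. *MtPRR1*, the most counted gene of the whole set, had 1798 and 1681 normalized counts in wildtype and 1307 and 1369 in MtWOX9-1oe calli and missed the threshold (log2 fold change -0.38, SE 0.12, adjusted p = 0.059), although DESeq2 called it. *MtPRR7*, with 0 and 13 counts in wildtype and 71 and 51 in MtWOX9-1oe libraries, was not called (log2 fold change 2.84, SE 0.93, adjusted p = 0.067). It passed the threshold with filterByExpr and when either wildtype library was left out, at 1.79 (adjusted p = 0.031) without replicate 1 and 8.85 (adjusted p = 0.0037) without replicate 2, where the remaining wildtype library is listed at 0 and the fitted value is no bound. Its adjusted p was 0.21 without MtWOX9-1oe replicate 1. The time of day at sampling, which sets the level of clock genes, is not given in the sources used here.

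The only gene of a cytokinin response factor in the set was *MtTMO3* (chromosome 5). In *Arabidopsis*, *TMO3* codes for an AP2/ERF protein of the cytokinin response factor group and was described as a target of the auxin response factor MONOPTEROS in the embryo. It had 2.15 and 24.1 normalized counts in wildtype and 367 and 307 in MtWOX9-1oe calli (log2 fold change 4.73, SE 0.61, adjusted p = 0.0061). The wildtype libraries differed by more than 10-fold, so that the change on the log2 scale came to 7.22 when wildtype replicate 2 was left out and to 3.80 when wildtype replicate 1 was. *MtWOX9-1* showed the same order between the wildtype libraries, with 2 and 18 counts, whereas *MtRRA4* showed the opposite order, with 10 and 0 counts. A link between these levels was not tested.

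**Figure D4:**
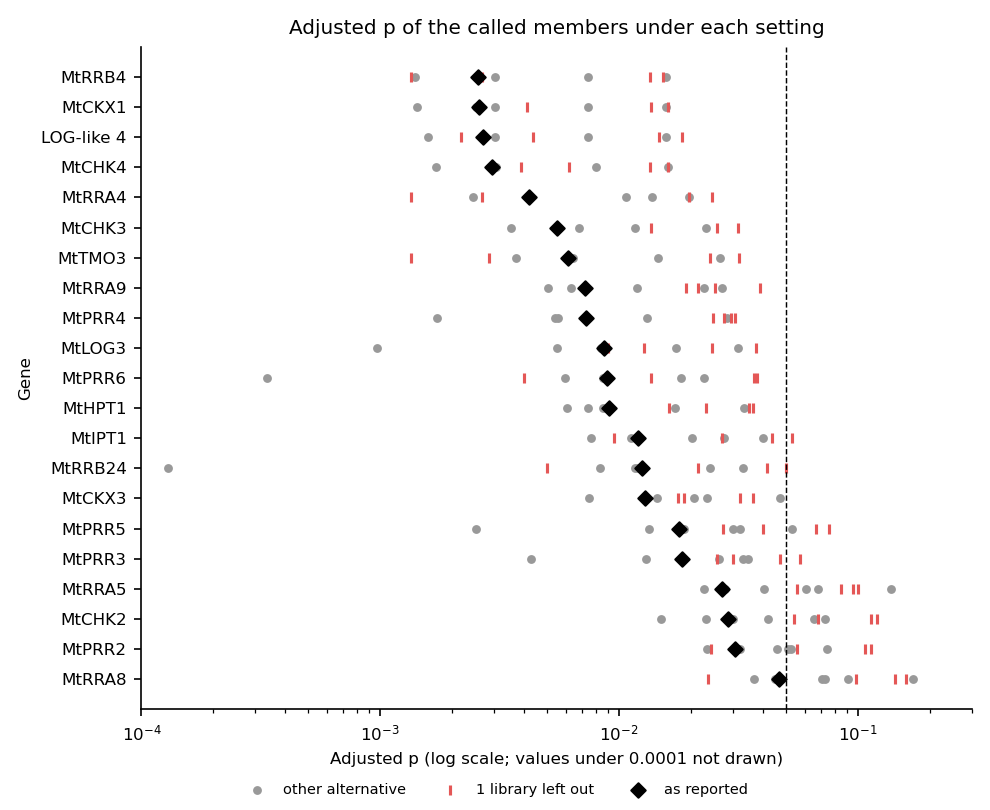
Adjusted p (x axis, log scale) of the 21 called cytokinin genes (y axis) as reported (diamonds), in fits with 1 library left out (red bars) and in the other alternative fits (grey points); the dashed line is the threshold of 0.05, and 7 values under 0.0001 are not drawn. *MtRRB4*, *MtCKX1* and *LOG-like 4* stay left of the line in every fit, whereas *MtRRA8*, *MtPRR2*, *MtCHK2* and *MtRRA5* lie on both sides of it.

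Genes linked to cytokinin outside the set were taken from lists of keywords. Their calls stand beside 20.2% of all genes tested that were higher and 18.9% that were lower. D-type cyclins, which drive entry into the cell cycle and include cytokinin-induced genes in *Arabidopsis*, matched 18 genes (among them *MtCycC1-1*, named as a C-type cyclin), of which 10 were tested, 3 were higher and 4 lower. DESeq2 called 1 higher and 4 lower. *MtCycD3-1*, the most counted of them, had 1036 and 875 counts in wildtype and 801 and 500 in MtWOX9-1oe libraries (log2 fold change -0.90, SE 0.23, adjusted p = 0.035).

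KNOX homeobox genes, some of which raise cytokinin synthesis in shoot meristems of other species, matched 12 genes, with 11 tested, 4 higher and 6 lower. The 4 higher genes (*MtKNOX1*, *MtKNOX7*, *MtKNOX8* and *MtKTN*) had at most 5 counts in any wildtype library, and DESeq2 called 0 of them higher and 4 genes lower. *MtKNOX3* had 751 and 476 counts in wildtype and 84 and 107 in MtWOX9-1oe libraries (log2 fold change -3.02, SE 0.24, adjusted p = 0.0029). The summed level of the KNOX list was 2826 and 2074 normalized counts in wildtype and 585 and 616 in MtWOX9-1oe calli. *MtKNOX3*, *MtKNOX5*, *MtKNOX9* and *MtKNOX4* had the most counts of this list in wildtype replicate 1, 337 to 751 each. The list was not split by kind of KNOX gene, and which of these genes act on cytokinin synthesis was not tested. Histidine kinases other than the cytokinin receptors matched 7 genes, of which 4 were tested, 2 were higher and 1 lower. *MtHK7* gave 0 counts in either wildtype library but 43 and 55 in MtWOX9-1oe calli (adjusted p = 0.0049). The lower gene, *MtHK1*, had 52 and 37 counts in wildtype and 0 and 5 in MtWOX9-1oe libraries (adjusted p = 0.013). The lists for cytokinin transporters, base salvage and further response factors matched 0 genes in the deposited names.

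Markers of tissues that callus can hold differed between the same groups. For comparison, 20.2% of all genes tested were higher and 18.9% lower. Of 16 root cap and root meristem genes 15 were higher in MtWOX9-1oe calli, with *MtWOX5* not called (13 were higher with DESeq2), and their summed level was 104 and 567 normalized counts in wildtype and 12694 and 16722 in MtWOX9-1oe calli. Of these, *MtRC4* had 0 counts in both wildtype libraries. The keywords took every root cap entry and every *MtPLT* symbol. Whether each of these genes marks root tissue was not checked, so their summed level is no measure of that tissue. Of 5 embryo genes (*MtPLT4* stands in both lists) 4 were higher and 1, *MtLEA*, was lower, with summed levels of 294 and 371 against 2190 and 1928, and *MtPM25* and *MtLEA4-5* were at 0 in both wildtype libraries. The list for shoot meristem held 11 tested genes, all but *MtWUS* from the KNOX list. Of these, 3 were higher (*MtKNOX1*, *MtKNOX7* and *MtKNOX8*) and 7 lower (0 and 4 with DESeq2). *MtWUS* and *MtFCL1* were at 0 in both MtWOX9-1oe libraries. The summed levels were 2833 and 2088 against 579 and 613. The keyword took KNOX genes of every kind, and whether each marks shoot meristem was not checked, so this sum is no measure of that tissue. The cambium gene *MtWOX4* had 490 and 432 counts in wildtype and 10 and 38 in MtWOX9-1oe libraries, and the keywords for leaf mesophyll matched 0 genes, so that leaf tissue could not be checked. The part of these tissues in the changes of cytokinin genes was not tested.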

How the data were processed

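PolyA RNA of 4 callus libraries was sequenced, 2 per group. The deposited table of read counts holds whole numbers for each gene, with MtrunA17r5.0-ANR identifiers, and a second table whose deposited normalized signal is each count multiplied by 1 constant per library. The submitters' processing notes name Trimmomatic, HISAT2, StringTie and DESeq, with no versions or settings, and strand use in counting is not given in the sources used here. The second table gave only gene names and descriptions. Its columns of the authors' own fold changes and p-values were not used, and 0 per-sample columns were left out of the mapping. Columns were matched to libraries by the sample description, and groups were taken from the titles and genotypes.

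edgeR 4.0.16 (R 4.3.3) was used on the counts: the 24630 genes that reached 10 counts over the libraries were scaled with TMM (factors 0.937 to 1.06) and tested by the quasi-likelihood test, two-sided, on condition alone, with Benjamini-Hochberg adjustment over all of them and a threshold of 0.05. Standard errors come from the test statistic. The replicates of a group differed by more than sampling noise (chi-square per degree of freedom 6.80 and 7.71), so each was counted. The fits were also run on simulated counts, whose outcome is not given here and is not used as support for any call. With 2 libraries per group an exact permutation test cannot go below p = 0.33, so none is given.

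Values in every library are given for called genes with a mean of at least 50 normalized counts, for the most counted gene of each role, and for genes with 0 to 3 counts in each library of 1 group and at least 20 in each of the other. This rule named 23 genes. *MtCKX3*, *MtRRA8* and *MtRRA9*, the other genes given as counts, and those outside the set were named after their values were seen. The genes and lists were chosen with earlier results of these data known. Keyword matches of polyol transporters and of interactors of cyclin-dependent kinases were dropped from the lists. Chromosomes are those in the gene identifiers. The RefSeq table matched 0 of the 80 genes by identifier, and no sequences or gene lengths were used here. The search of promoters for the binding motif of type-B regulators was not run.

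The alternatives were DESeq2 1.42.0, edgeR with the size factors of DESeq2, scaling by library size alone, filterByExpr, a minimum of 1 count, a prior count of 2, a replicate block, each library left out, a threshold of 0.01 on the adjusted p, a change of more than 1 on the log2 scale, and the set without pseudo-response regulators and other peripheral genes.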

Additional observations from a re-analysis of the deposited data

How the results depend on the processing

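No called cytokinin gene changed direction. Of the 21 called genes DESeq2 kept 19, library size alone 17 and filterByExpr all 21. The number of lower genes, 11 in the report, was 7 with library size alone, 6 with an absolute log2 fold change over 1, 4 with an adjusted p under 0.01, and 5 to 8 when each library was left out. The number of higher genes, 10 in the report, was 9 to 16 when each library was left out, and 16 without wildtype replicate 2. Over all genes, 4985 were higher (1907 at an adjusted p under 0.01, 2696 to 4465 with libraries left out) and 4660 lower (3101 with DESeq2, 2023 at 0.01, 2935 to 3858 with libraries left out). With DESeq2, 3331 of all genes were higher, and with library size alone 6024 were higher and 3928 lower. Where 1 library is left out, the lone library of its group is assumed to vary like the other group.

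The replicate numbers were not found to pair the libraries (correlation of same-numbered deviations -0.023, 2 pairs). With the replicate block, 10 cytokinin genes were higher and 6 lower, and *MtCHK2*, *MtPRR2*, *MtPRR5*, *MtRRA8* and *MtRRA5* lost their calls.

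Genes with few counts are limited by depth: at 3 counts per library the limit is 0.450 to 0.572 CPM (counting error only). Changes below this limit in the 35 untested cytokinin genes could not be seen.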
